A study of Rattus norvegicus with 18 samples.

Results

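A set of 9 genes was followed through the livers of rats dosed with either of 2 liver toxicants: Stac3, Aox3, Ltc4s, Nox4, Tenm2, Lrtm2, Mmd2, Zfp354a and Slc25a30. They were picked, with the measurements in view, for large falls in treated liver, under a working name that reads "genes lost with CCl4, later with DEN". No numerical threshold was given for the choice, so no gene just outside it can be named. All 9 were on the array and passed the filter on dim probes, among 10914 genes tested and 15645 genes matched. Mmd2 passed it only through the day 84 controls and Tenm2 only through the control groups, which are the groups where they were highest. Because the treated livers chose the genes, their differences from control liver are given as a description with errors and without p-values.

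The animals were male F344/NSlc rats, bought at 5 weeks of age and kept for a further week before dosing. DEN (diethylnitrosamine, an alkylating liver carcinogen) was given daily by gavage at 4 mg/kg in saline, for 28 or 84 days. CCl4 (carbon tetrachloride, which injures hepatocytes after its activation by cytochrome P450) was given daily by gavage at 100 mg/kg in corn oil, for 28 or 84 days. Control rats of each day are called vehicle animals in the sample titles and untreated, on basal diet, in the treatment protocol, so whether they received a gavage or either solvent cannot be told apart here. Each of the 6 groups held 3 rats with 1 Agilent one-colour array per rat, 18 arrays in all. The series title asks about genes that are hypermethylated and downregulated in rat liver by non-genotoxic hepatocarcinogens, and only RNA was measured on these arrays.

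The genes have unlike jobs. Aox3 encodes an aldehyde oxidase, a molybdenum enzyme of liver that oxidises aldehydes and nitrogen heterocycles. Ltc4s encodes leukotriene C4 synthase, which joins glutathione to leukotriene A4, and Nox4 encodes an NADPH oxidase that releases mainly hydrogen peroxide. Stac3 encodes an adaptor of excitation-contraction coupling that is best known in skeletal muscle. Tenm2 (a teneurin, a ligand of latrophilin receptors), Lrtm2 (a leucine-rich repeat membrane protein) and Mmd2 (a membrane protein of the progestin and adipoQ receptor, or PAQR, family) are known mainly from neurons or other tissues. Zfp354a encodes a KRAB zinc finger protein, a class of DNA-binding repressors, and Slc25a30 encodes a carrier of the inner mitochondrial membrane.

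The promoters of Stac3, Aox3, Ltc4s and Nox4, which shared one course over the groups, are shown because the series title asks about methylation, which acts on CpG dinucleotides. Each run is the 250 bases before the annotated gene start, read 5' to 3' on the strand of the gene, from the RefSeq table of build GRCr8, with every CpG in capitals. The positions are chr7:65228225-65228474 (plus strand) for Stac3, chr9:67158750-67158999 (plus) for Aox3, chr10:35063595-35063844 (minus) for Ltc4s and chr1:150313639-150313888 (plus) for Nox4.
Stac3: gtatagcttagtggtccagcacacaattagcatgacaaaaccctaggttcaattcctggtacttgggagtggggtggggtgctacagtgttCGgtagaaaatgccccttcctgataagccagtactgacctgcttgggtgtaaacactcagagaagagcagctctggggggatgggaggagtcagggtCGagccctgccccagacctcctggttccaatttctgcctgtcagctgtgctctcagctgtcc
Aox3: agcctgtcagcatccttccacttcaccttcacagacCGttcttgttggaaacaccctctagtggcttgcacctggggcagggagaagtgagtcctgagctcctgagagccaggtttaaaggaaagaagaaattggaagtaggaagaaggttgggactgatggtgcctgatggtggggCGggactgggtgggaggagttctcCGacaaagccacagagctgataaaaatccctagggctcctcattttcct
Ltc4s: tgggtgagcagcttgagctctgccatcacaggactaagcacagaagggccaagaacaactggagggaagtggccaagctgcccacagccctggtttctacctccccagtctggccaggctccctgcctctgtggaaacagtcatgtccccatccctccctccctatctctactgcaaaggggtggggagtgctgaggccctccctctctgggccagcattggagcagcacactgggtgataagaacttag
Nox4: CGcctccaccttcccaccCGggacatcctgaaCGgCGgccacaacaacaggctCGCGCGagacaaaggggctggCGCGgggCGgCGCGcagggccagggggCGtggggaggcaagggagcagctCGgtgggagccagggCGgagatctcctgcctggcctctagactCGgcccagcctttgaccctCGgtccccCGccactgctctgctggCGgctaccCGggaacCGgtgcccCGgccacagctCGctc

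Stac3 had 2 CpG in this window, Aox3 had 3, Ltc4s had 0 and Nox4 had 23. Among 27456 rat promoters of the same length, the median was 6 CpG, with quartiles of 2 and 16. The table held 8 of the 9 genes, whose median was 5, and the others in it were Tenm2 with 4 CpG, Zfp354a with 6, Mmd2 with 16 and Lrtm2 with 22. The genes therefore lay in both the CpG-poor and the CpG-rich range of rat promoters. The letters TATAAA on the gene strand were in 0 of the 8 windows, against 8.38% of all promoters. CAAAGTCCA, searched on both strands, was in 0 of the 8 against 0.331% of all. TTCNNNGAA, which reads the same on both strands, was in 1 of the 8 (Zfp354a) against 7.53% of all, and GTTAAT, on both strands, was in 1 of the 8 (Tenm2) against 6.46% of all. These matches describe letters in a window and nothing about binding.

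**Figure D1:**
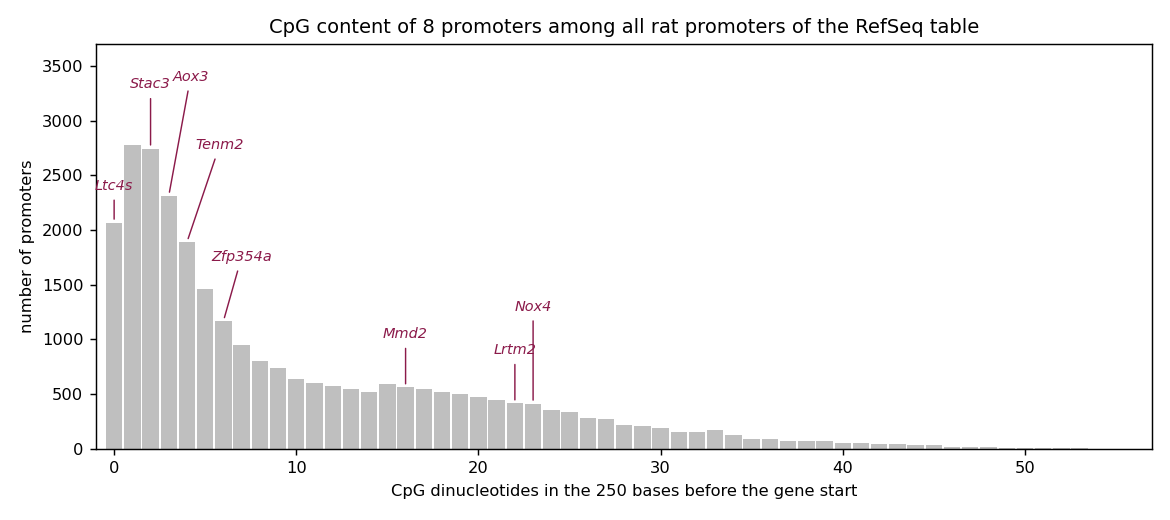
Number of rat promoters (vertical axis) by their count of CpG dinucleotides in the 250 bases before the gene start (horizontal axis), with 8 of the 9 genes marked. Ltc4s, Stac3, Aox3 and Tenm2 sit at 0 to 4 CpG, while Mmd2, Lrtm2 and Nox4 sit at 16 to 23.

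Levels are given as log2 of the processed signal minus the 75th percentile of that array, so a level of 0 is the 75th percentile itself and 1 unit is a 2-fold difference. Across arrays the 75th percentile of the signal was 170 to 325 units, 47.2% to 57.0% of probes were well above background and arrays of one group correlated at 0.976 to 0.996 over genes. The number of arrays, 3 a group, limits the precision. Errors of differences are standard errors of a linear model (limma) with 3 rats in each group, and they pool the spread of all 6 groups. Stac3, Aox3, Ltc4s and Nox4 shared one course: at day 28 the DEN means lay 1.0 to 1.91 log2 units below controls and CCl4 livers farther below, and at day 84 DEN livers lay farther below controls than at day 28. At day 84 Stac3, Aox3 and Ltc4s were still higher in DEN than in CCl4 livers, while Nox4 was too dim to tell. At day 28 the 9 genes had median differences of -1.30 (DEN) and -4.33 (CCl4), and at day 84 of -3.56 (DEN) and -5.06 (CCl4), while the median of all genes tested lay between -0.10 and -0.04. With genes that were dim in a treated group set at a bound from the lowest processed signal well above background, the medians of the 9 genes at day 84 were -3.38 with DEN and -3.55 with CCl4.

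At day 28, 7 of the 9 genes were at least 2-fold lower with DEN than in controls (1.18% of all genes tested were), and 8 of the 9 with CCl4 (7.49%). At day 84, 8 of the 9 were at least 2-fold lower with DEN (4.80%) and 9 of 9 with CCl4 (6.64%). All 3 treated arrays lay below all 3 control arrays for 6 genes with DEN at day 28 (25.8% of all genes tested) and for 7 genes with CCl4 (34.6%). The same held for 8 genes with DEN at day 84 (38.6%) and for 9 with CCl4 (40.8%). The genes were picked from these comparisons, so nothing is read from these shares. DEN and CCl4 were set against the same control rats. In whole liver, fewer cells of a type and less RNA per cell cannot be told apart.

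Aox3 had levels of 1.19, 1.1 and 1.32 in DEN livers, -5.68, -6.40 and -2.39 in CCl4 livers and 2.37, 2.36 and 2.35 in control livers at day 28. The 3 groups did not overlap, and only the third CCl4 array was well above background. At day 84 the levels were -1.45, -4.06 and -1.65 in DEN livers, -6.28, -6.42 and -5.87 in CCl4 livers and 2.71, 2.50 and 1.86 in control livers. None of the CCl4 arrays was then well above background, and every DEN array lay between the CCl4 and control arrays. At day 28 DEN livers differed from controls by -1.16 ± 0.81 and CCl4 livers by -7.19 ± 0.81. Without the third CCl4 array it was -8.40 and without the second -6.40. By day 84 it was -4.74 ± 0.81 with DEN, and -3.91 without the second DEN array, the lowest, and the signal was at least 103-fold lower with CCl4. Such a bound sets the control mean against the lowest signal well above background on each dim array, or the probe's own signal where that was higher. It holds for the processed signal only, and normexp background correction gave differences smaller than the bound for Aox3 and other genes.

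Ltc4s had levels of 1.27, 1.86 and 1.14 in DEN livers, -3.90, -4.07 and -3.47 in CCl4 livers and 1.36, 2.75 and 3.16 in control livers at day 28. DEN and control livers overlapped through the first control array, and all CCl4 livers lay far below both, with only the third CCl4 array well above background. At day 84 the levels were -0.21, -0.85 and 0.38 in DEN livers, -2.51, -2.04 and -2.24 in CCl4 livers and 2.92, 2.89 and 2.59 in control livers. The groups were then fully separated in the order CCl4, DEN and control. Ltc4s differed from controls by -1.0 ± 0.39 (DEN) and -6.24 ± 0.39 (CCl4) at day 28, and by -3.02 ± 0.39 (DEN) and -5.06 ± 0.39 (CCl4) at day 84. The small DEN difference at day 28 depended on single arrays: it was -1.53 without the first control and -0.64 without the third.

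Nox4 had levels of -2.26, -2.15 and -2.28 in DEN livers, -6.07, -6.19 and -3.52 in CCl4 livers and -0.69, -0.57 and -1.53 in control livers at day 28. Again the groups did not overlap, and 1 of 3 CCl4 arrays was well above background. At day 84 the levels were -4.80, -4.93 and -3.20 in DEN livers (1 of 3 well above background), -6.59, -6.19 and -5.50 in CCl4 livers (0 of 3) and -0.48, -0.77 and -1.0 in control livers. The oxidase signal was thus near the limit of detection in both treated groups. Nox4 differed from controls by -1.30 ± 0.61 (DEN) and -4.33 ± 0.61 (CCl4) at day 28 and by -3.56 ± 0.61 (DEN) at day 84, when it was at least 12.0-fold lower with CCl4.

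Stac3 gave the largest differences of the 9 with CCl4 at both days. Its levels at day 28 were 4.88, 5.70 and 5.10 in DEN livers, -1.25, -4.14 and 0.13 in CCl4 livers (2 of 3 well above background) and 7.41, 7.16 and 6.84 in control livers. At day 84 they were 2.97, 1.12 and 3.10 in DEN livers, -4.20, -3.98 and -3.69 in CCl4 livers and 6.65, 6.28 and 6.48 in control livers. In no case did 2 groups of one day overlap. Against controls the signal was lower by 1.91 ± 0.78 log2 units, or 3.76-fold, with DEN at day 28. The CCl4 difference at day 28 was -8.89 ± 0.78, but -7.70 without the dim second array and -9.84 without the third. At day 84 it was -4.07 ± 0.78 with DEN, and -3.44 without the second DEN array, and -10.43 ± 0.78 with CCl4, a 1377-fold lower signal. The size of this CCl4 value is uncertain, because the lowest signals well above background on those arrays were -4.48, -4.17 and -4.35. With normexp background correction it was -8.30. Stac3 ranked 1 of 10914 genes from the lowest difference with CCl4 at day 28 and 3 at day 84.

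**Figure D2:**
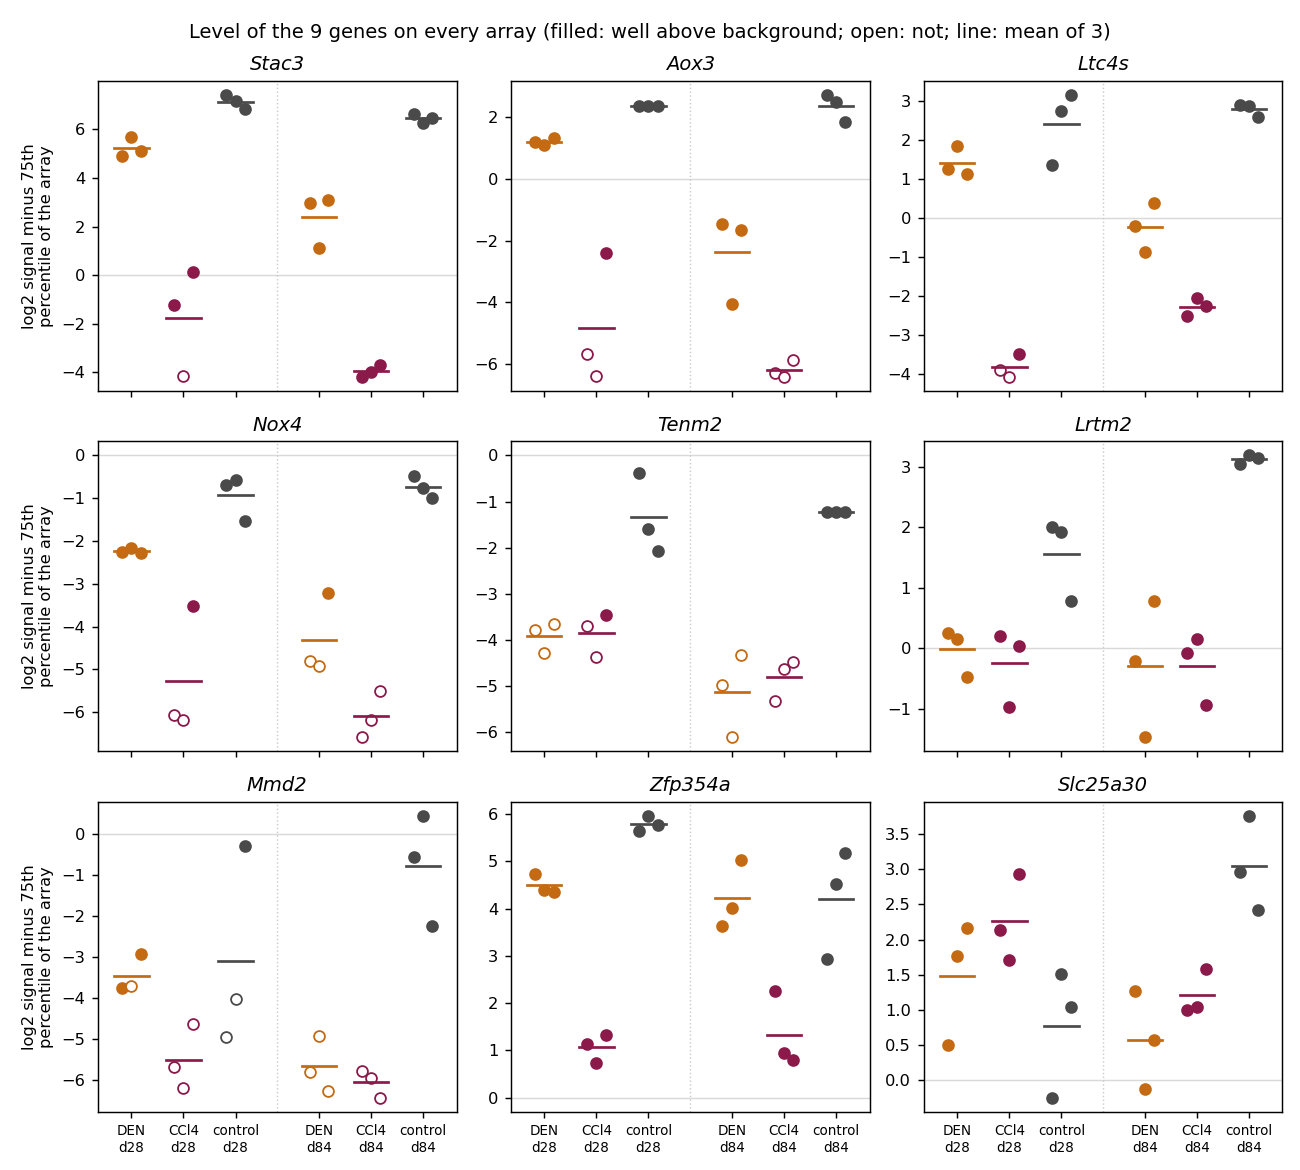
Log2 signal minus the 75th percentile of the array (vertical axes) of each gene on all 18 arrays, by group, with DEN, CCl4 and control livers at day 28 and then at day 84. Filled points were well above background, open points were not, and lines are means of 3 rats. Stac3, Aox3, Ltc4s and Nox4 step down with CCl4 at both days and with DEN mainly at day 84.

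The membrane proteins Tenm2 and Lrtm2 did not follow that course and go against the working name of the set: DEN livers were already low at day 28, beside CCl4 livers. Tenm2 had levels of -3.79, -4.29 and -3.64 in DEN livers, -3.70, -4.37 and -3.45 in CCl4 livers and -0.37, -1.59 and -2.07 in control livers at day 28. At day 84 they were -4.97, -6.11 and -4.32 in DEN livers, -5.33, -4.63 and -4.47 in CCl4 livers and -1.23, -1.23 and -1.24 in control livers. Both treated groups lay below every control of their day, and only 1 of the 12 treated arrays, of the CCl4 group at day 28, was well above background. Relative to controls, Tenm2 was at least 4.83-fold lower with DEN at day 28, at least 7.62-fold lower with DEN at day 84 and at least 8.57-fold lower with CCl4 at day 84. With CCl4 at day 28 the difference was -2.50 ± 0.45.

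Lrtm2 was well above background on every array by the probe used, so its levels by that probe are measured in all groups. A second, dimmer probe was well above background on 4 arrays. It differed from controls by -0.98 (DEN) and -1.73 (CCl4) at day 28, and by -3.37 (DEN) and -3.50 (CCl4) at day 84. The levels below are those of the probe used. At day 28 they were 0.25, 0.15 and -0.47 in DEN livers, 0.20, -0.97 and 0.03 in CCl4 livers and 2.00, 1.91 and 0.77 in control livers. At day 84 they were -0.21, -1.47 and 0.78 in DEN livers, -0.08, 0.14 and -0.93 in CCl4 livers and 3.05, 3.18 and 3.13 in control livers. Treated and control arrays never overlapped, whereas DEN and CCl4 arrays did at both days. The differences from controls were -1.58 ± 0.50 (DEN) and -1.81 ± 0.50 (CCl4) at day 28, and -3.42 ± 0.50 (DEN) and -3.41 ± 0.50 (CCl4) at day 84.

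Mmd2 was hard to measure in young controls. Its levels at day 28 were -3.74, -3.69 and -2.92 in DEN livers (2 of 3 well above background), -5.66, -6.19 and -4.62 in CCl4 livers (0 of 3) and -4.95, -4.02 and -0.30 in control livers (1 of 3). Both treated groups overlapped controls, and the control mean rested on the third control array. The DEN difference was -0.36 ± 0.94, and 1.03 without that array. The CCl4 difference was -2.40 ± 0.94, and -1.01 without that array, so no size can be given for it. At day 84 the levels were -5.79, -4.92 and -6.27 in DEN livers, -5.76, -5.95 and -6.42 in CCl4 livers and -0.55, 0.45 and -2.23 in control livers. No treated array was then well above background and all 3 controls were. Mmd2 at day 84 was at least 10.4-fold lower with DEN and at least 11.7-fold lower with CCl4, with no order between the compounds.

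Zfp354a, the zinc finger gene, was low with CCl4 at both days, and its DEN livers were not below controls at day 84, against the working name of the set. At day 28 its levels were 4.73, 4.39 and 4.36 in DEN livers, 1.14, 0.73 and 1.33 in CCl4 livers and 5.64, 5.97 and 5.77 in control livers. At day 84 they were 3.63, 4.01 and 5.04 in DEN livers, 2.27, 0.94 and 0.79 in CCl4 livers and 2.93, 4.53 and 5.18 in control livers. DEN livers lay below controls at day 28 and among them at day 84, when controls themselves spread over more than 2 log2 units. At day 28 the DEN difference from controls was -1.30 ± 0.51 and the CCl4 difference -4.72 ± 0.51, and at day 84 they were 0.01 ± 0.51 and -2.88 ± 0.51. Leaving out one array at a time moved the DEN value at day 84 between -0.63 and 0.49.

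Slc25a30, the mitochondrial carrier, was the one gene whose mean was higher in treated livers at day 28, which also goes against the working name. Its levels were then 0.50, 1.76 and 2.17 in DEN livers, 2.14, 1.71 and 2.93 in CCl4 livers and -0.25, 1.51 and 1.04 in control livers. At day 84 they were 1.27, -0.12 and 0.56 in DEN livers, 0.99, 1.04 and 1.57 in CCl4 livers and 2.96, 3.76 and 2.42 in control livers. The CCl4 arrays lay above all controls at day 28, and both treated groups lay below all controls at day 84. Slc25a30 differed from controls by 0.71 ± 0.54 (DEN) and 1.50 ± 0.54 (CCl4) at day 28, and by -2.48 ± 0.54 (DEN) and -1.85 ± 0.54 (CCl4) at day 84. Without the first control array, which was the lowest, the values at day 28 were 0.20 with DEN and 0.99 with CCl4. The treated livers at day 84 spanned -0.12 to 1.57, close to the -0.25 to 1.51 of the day 28 controls, while the day 84 controls stood higher than either.

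**Figure D3:**
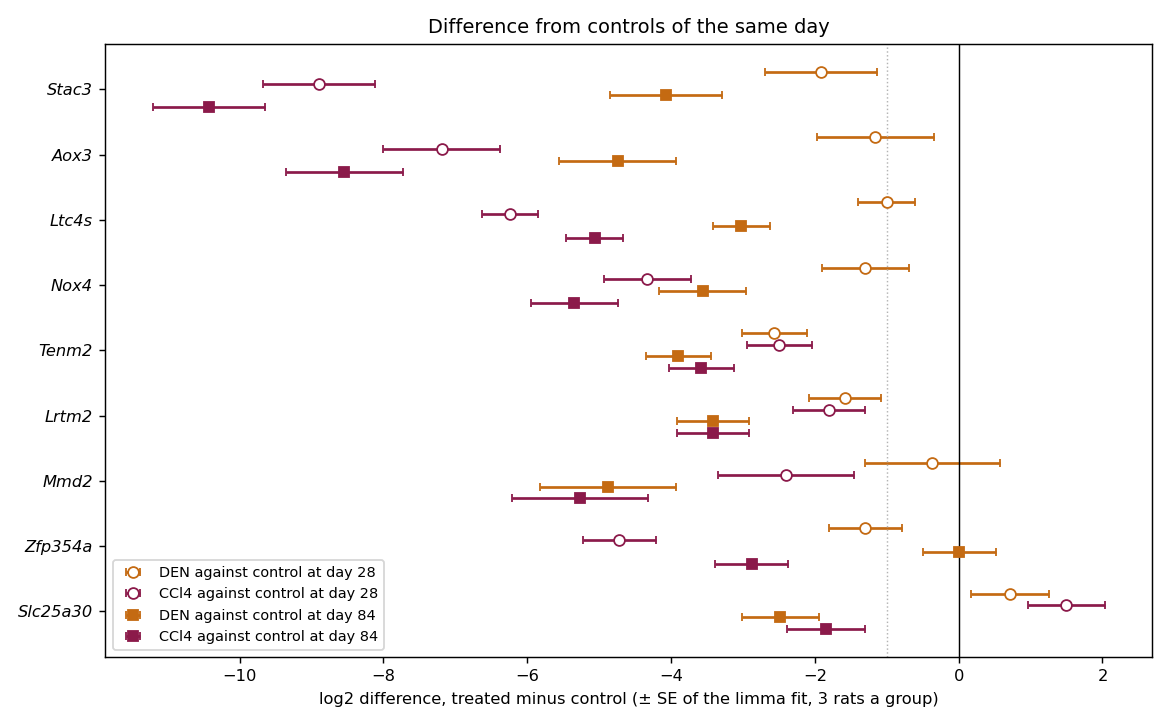
Log2 difference from controls of the same day (horizontal axis) with standard errors of the limma fit for each of the 9 genes. Open circles are day 28 and filled squares day 84, orange is DEN and purple CCl4, the solid line is no difference and the dotted line 2-fold lower. The 2 compounds lie apart for Stac3, Aox3, Ltc4s, Nox4 and Zfp354a and close together for Lrtm2, while Tenm2 was dim with both.

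Set directly against DEN livers, CCl4 livers differed in Stac3 by -6.98 ± 0.78 log2 units at day 28 and by -6.35 ± 0.78 at day 84. For Aox3 the difference was -6.03 ± 0.81 at day 28 and at least 3.85-fold at day 84, and for Ltc4s it was -5.23 ± 0.39 at day 28 and -2.04 ± 0.39 at day 84. Nox4 differed by -3.03 ± 0.61 at day 28, and at day 84 it was only bounded, at least 1.01-fold, because most arrays were dim. The day 28 sizes are also uncertain, since only 1 of 3 CCl4 arrays of Aox3, Ltc4s and Nox4 was well above background. Over the alternatives they were as small as -3.22 for Aox3, -3.33 for Ltc4s and -0.90 for Nox4. Zfp354a differed by -3.42 ± 0.51 at day 28 and -2.89 ± 0.51 at day 84. In the main fit the gap between compounds was therefore smaller at day 84 for Ltc4s and of like size for Stac3 and Zfp354a. For Aox3 and Nox4 it was not measured at that day. With normexp background correction the Stac3 gap was smaller at day 84 than at day 28. So was the Zfp354a gap with CCl4 arrays limited to the slide of their controls, which left 1 CCl4 array at day 84. Lrtm2 differed between the compounds by -0.23 ± 0.50 at day 28 and 0.01 ± 0.50 at day 84, and Slc25a30 by 0.78 ± 0.54 and 0.63 ± 0.54. Tenm2 was near the limit of detection with both compounds, so its difference between them was not measured. Lengths of dosing can also be set side by side: the DEN difference at day 84 minus that at day 28 was -2.16 ± 1.1 for Stac3, -3.58 ± 1.15 for Aox3, -2.02 ± 0.56 for Ltc4s and -2.26 ± 0.86 for Nox4. It was -1.84 ± 0.71 for Lrtm2, -3.19 ± 0.76 for Slc25a30 and 1.31 ± 0.72 for Zfp354a. For each of these the control mean moved farther between the days than the DEN mean. Lrtm2 went from 1.56 to 3.12 in controls and from -0.02 to -0.30 in DEN livers. Slc25a30 went from 0.76 to 3.05 in controls and from 1.48 to 0.57 in DEN livers. Zfp354a went from 5.79 to 4.21 in controls and from 4.49 to 4.22 in DEN livers. The same difference of differences with CCl4 was -1.53 ± 1.1 for Stac3, 1.18 ± 0.56 for Ltc4s and 1.84 ± 0.72 for Zfp354a. Zfp354a thus lay less far below controls at the later day, but mostly because controls were lower. Its CCl4 mean was 1.07 at day 28 and 1.33 at day 84. The Ltc4s value was 0.17 with normexp background correction, and most of its CCl4 arrays at day 28 were dim.

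**Figure D4:**
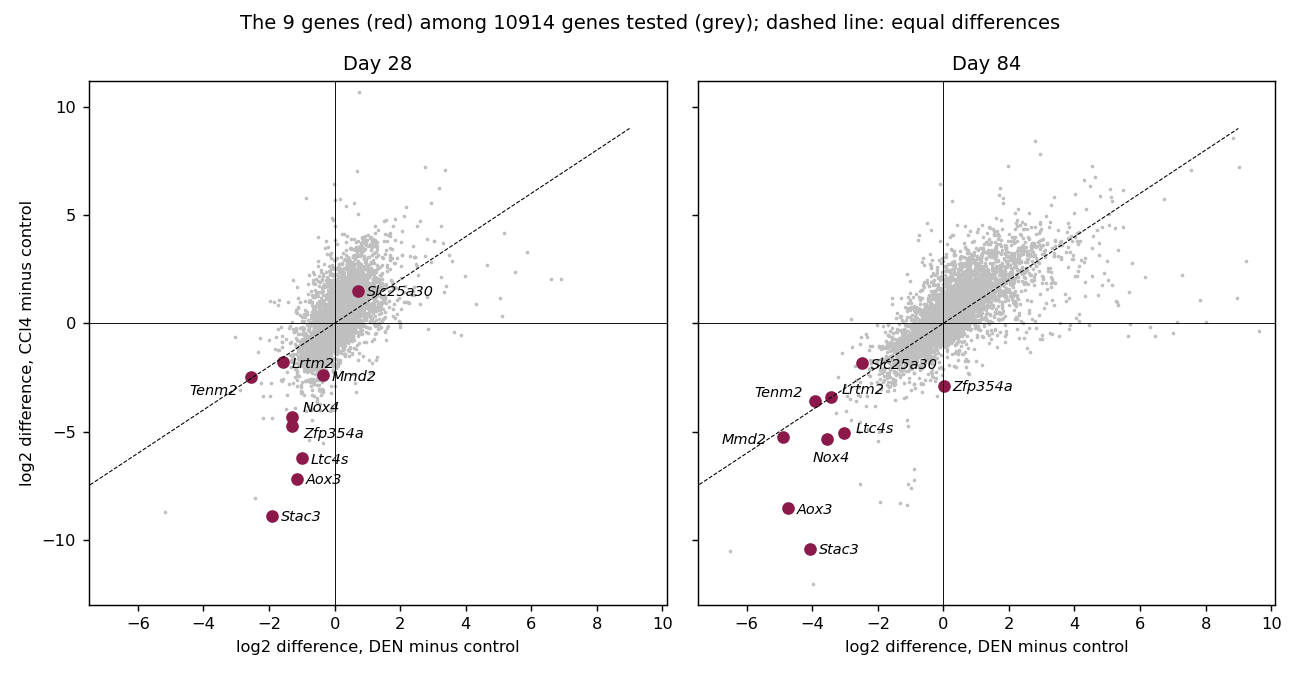
Log2 difference from controls with DEN (horizontal axis) and with CCl4 (vertical axis) for all 10914 genes tested (grey) and the 9 genes (red), at day 28 on the left and day 84 on the right. Both axes share the control rats. The dashed line marks equal differences. Stac3, Aox3, Ltc4s and Nox4 lie below the line on both days and farther to the left at day 84.

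Within the CCl4 and DEN groups the arrays were unequal. The second CCl4 array at day 28 was the lowest of its 3 for 9 of the 9 genes, and for 85.8% of the other genes that were at least 2-fold lower. The third, the one CCl4 array of that day on another slide than the controls, was the highest for 8 of the 9, and for 64.8% of those other genes. The second DEN array at day 84 was the lowest of its group for 7 of the 9 genes and for 79.1% of the other genes at least 2-fold lower. Arrays of DEN and control livers shared a slide at each day. With CCl4 arrays limited to the slide of their controls, which leaves 2 arrays at day 28 and 1 at day 84, Stac3 differed by -9.84 and -10.67, Aox3 by -8.40 and -8.63, Ltc4s by -6.41 and -5.31 and Nox4 by -5.20 and -5.84, at days 28 and 84 in that order. Zfp354a at day 84 was then -1.95.

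The day 84 controls were also set against the day 28 controls. Both entered the choice of the genes, since a high control makes a larger fall, so these values are a description too. Slc25a30 differed by 2.28 ± 0.54 log2 units, Mmd2 by 2.31, Lrtm2 by 1.56 and Zfp354a by -1.58. Without the third day 28 control Mmd2 differed by 3.71, and without the third day 84 control Zfp354a differed by -2.06. The limma threshold was passed by 1 of the 9, Slc25a30, where 9.77% of all genes tested did, and nothing is read from that count. The day 28 controls were all on one slide and the day 84 controls all on another, so age and slide cannot be told apart.

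Relatives and pathway partners of the 9 genes were tested in the same fit, as genes that the choice did not use, although their lists were drawn up with earlier results known. Of 93 partner genes 66 were tested. With DEN at day 28, 5 rose and 7 fell (12 changed, where 15.0% of all genes tested changed), and with CCl4 20 rose and 26 fell (59.7%). At day 84, 14 rose and 22 fell with DEN (52.7%), and 25 rose and 25 fell with CCl4 (64.3%). The median differences were between -0.13 and 0.04 in these comparisons, next to -0.10 to -0.04 over all genes. Scaling to the spike-in controls instead of the 75th percentile moves all differences up by 0.41 and 0.80 with DEN and CCl4 at day 28 and by 0.70 and 0.55 at day 84, and the falls of partner genes named next without a remark stayed below 0 and past the threshold under it.

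The channel partner of Stac3 moved down with it. Cacna1s, the calcium channel subunit of the muscle triad to which STAC3 protein binds, averaged -5.13 ± 0.23 in CCl4 livers and -2.85 ± 0.25 in controls at day 28 (SD, n = 3 each), and it fell by at least 2.42-fold (limma adjusted p = 7.95e-06). At day 84 it fell by at least 2.64-fold with DEN (1.7e-06) and at least 2.97-fold with CCl4 (2.55e-07, limma), with none of these treated arrays well above background. Over the alternatives the smallest differences were -0.73 with CCl4 at day 28, and -0.91 with DEN and -0.88 with CCl4 at day 84. These are less than the bounds. With DEN at day 28 Cacna1s differed by -0.69 ± 0.26 (adjusted p = 0.0859, limma). Cacna2d1, an accessory subunit of voltage-gated calcium channels, rose by 2.01 ± 0.30 with CCl4 at day 28 and by 2.63 ± 0.30 at day 84 (limma adjusted p = 6.32e-05 and 5.49e-06). Of the 10 genes of this list 4 were tested, and 0, 3, 2 and 3 changed with DEN and CCl4 at day 28 and DEN and CCl4 at day 84. Of 9 skeletal muscle markers on the array, Acta1, Ckm, Myh1, Myh2 and Myh4 were not well above background on any array. Actn3, a muscle actinin, was dim in controls and in DEN livers at day 28, and was at least 4.95-fold higher with CCl4 at day 28, at least 2.82-fold higher with DEN at day 84 and at least 3.43-fold higher with CCl4 at day 84 (limma adjusted p = 0.000143, 0.00122 and 0.000376). The sum of the muscle markers, in multiples of the 75th percentile of the array, was 0.551 to 0.673 in DEN livers, 0.831 to 1.34 in CCl4 livers and 0.667 to 0.725 in controls at day 28. At day 84 it was 0.799 to 0.940 in DEN livers, 0.987 to 1.05 in CCl4 livers and 0.777 to 0.836 in controls. Of 4 muscle markers tested, 0 rose and 0 fell with DEN and 1 rose and 0 fell with CCl4 at day 28. At day 84, 1 rose and 1 fell with DEN, and 1 rose and 0 fell with CCl4. With spike-in scaling 0 and 3 rose with DEN and CCl4 at day 28 and 2 and 3 at day 84, and 0 fell in each. With CCl4 at both days the muscle sum was higher than in controls, where Stac3 and Cacna1s were lower. A part of muscle cells in their differences was not tested.

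Around Aox3, the related oxidase Aox1 moved with CCl4 at day 28 and against it with DEN at day 84. Aox1 fell by 0.66 ± 0.15 with CCl4 at day 28 (limma adjusted p = 0.00155), though it was 0.14 with spike-in scaling. At day 84 it rose by 0.84 ± 0.15 with DEN (0.000368, limma) and was -0.28 ± 0.15 with CCl4 (0.114, limma). Aox2 fell by 1.08 ± 0.22 with CCl4 at day 84 (0.000635, limma). Gphn, which encodes gephyrin and completes the molybdenum cofactor, fell with CCl4 by 1.29 ± 0.14 at day 28 and 1.21 ± 0.14 at day 84 (limma adjusted p = 4.34e-06 and 5.85e-06). Mtarc1, another molybdenum enzyme, fell with CCl4 by 1.27 ± 0.20 at day 28 and 1.05 ± 0.20 at day 84 (0.000128 and 0.000491, limma). In this list 10 of 12 genes were tested, of which 0 rose and 2 fell with DEN and 0 rose and 7 fell with CCl4 at day 28. At day 84, 2 rose and 6 fell with DEN, and 2 rose and 5 fell with CCl4.

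The leukotriene genes went different ways around Ltc4s. Abcc1, which exports leukotriene C4, rose by 1.79 ± 0.21 with DEN and 1.83 ± 0.21 with CCl4 at day 84 (limma adjusted p = 1.51e-05 and 5.83e-06). Ggt1, which removes glutamate from leukotriene C4 and glutathione, rose by 5.76 ± 0.58 with DEN and by 2.80 ± 0.58 with CCl4 at day 84 (5.21e-06 and 0.00079, limma). Cyp4f5, of a cytochrome P450 family that oxidises leukotriene B4, rose by 2.28 ± 0.24 with DEN and 3.19 ± 0.24 with CCl4 at day 84 (limma adjusted p = 7.24e-06 and 1.99e-07). Alox5ap, which presents arachidonic acid to 5-lipoxygenase, rose by 1.49 ± 0.26 with CCl4 at day 84 (0.000227, limma) and was -0.18 ± 0.26 at day 28. Mgst3, a membrane glutathione transferase related to Ltc4s, fell by 1.41 ± 0.12 with CCl4 at day 28 and by 0.93 ± 0.12 at day 84 (9.47e-07 and 2.28e-05, limma), far less than Ltc4s differed. Of 15 tested genes of this list, 1 rose and 1 fell with DEN and 6 rose and 6 fell with CCl4 at day 28, and 5 rose and 4 fell with DEN and 8 rose and 5 fell with CCl4 at day 84.

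Around Nox4, the phagocyte oxidase moved the other way. Cybb, the phagocyte NADPH oxidase, rose by 0.75 ± 0.15 with CCl4 at day 28 and by 1.34 ± 0.15 at day 84 (limma adjusted p = 0.000787 and 5.99e-06). Cyba, the subunit that both oxidases need, rose by 0.87 ± 0.16 and 0.96 ± 0.16 with CCl4 at days 28 and 84 (0.000438 and 0.000169, limma). Cat (catalase) and Gpx1 (glutathione peroxidase), which remove hydrogen peroxide, fell with CCl4: Cat by 1.42 ± 0.16 at day 28 and 1.33 ± 0.16 at day 84 and Gpx1 by 1.23 ± 0.13 and 1.14 ± 0.13 (limma adjusted p between 4.64e-06 and 9.9e-06). In this list 13 of 17 genes were tested, of which 3 rose and 2 fell with DEN and 5 rose and 5 fell with CCl4 at day 28. The counts at day 84 were 1 and 3 with DEN and 6 and 3 with CCl4.

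**Figure D5:**
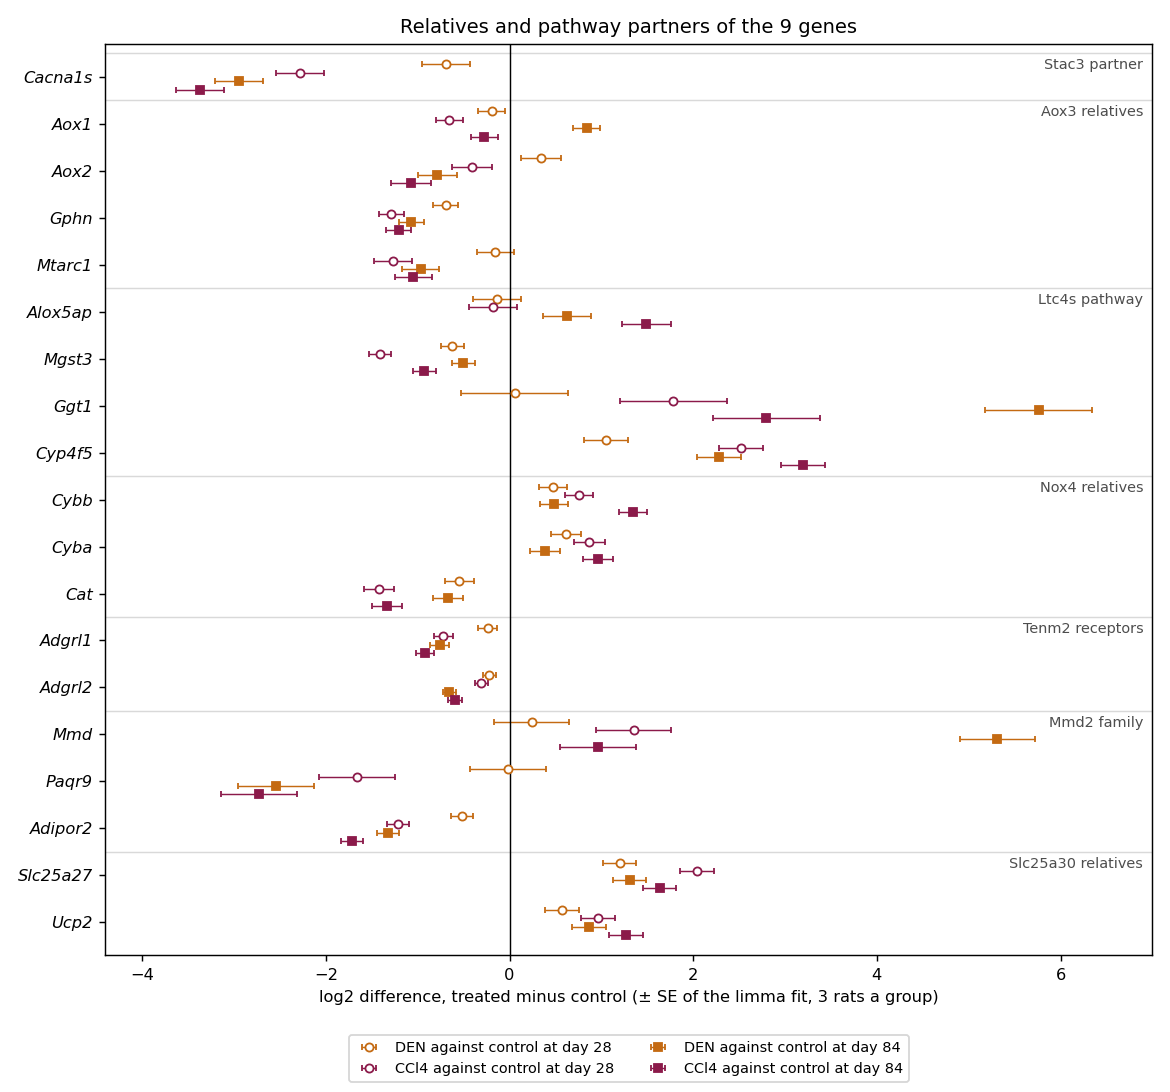
Log2 difference from controls (horizontal axis) with standard errors of the limma fit for 19 relatives and partners of the 9 genes. Open circles are day 28 and filled squares day 84, orange is DEN and purple CCl4. Cacna1s lies below 0 at both days with CCl4, Ggt1 and Mmd lie above 5 with DEN at day 84, and the teneurin receptors lie between -1 and 0.

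In the PAQR family, Mmd, the closest relative of Mmd2 in the list, was at least 31.4-fold higher with DEN at day 84, averaging 1.21 ± 0.37 in DEN livers and -4.10 ± 0.24 in controls (SD, n = 3 each; limma adjusted p = 4.36e-07, no control well above background). Over the alternatives the smallest log2 difference of Mmd there was 2.94, which is less than the bound. Paqr9 fell by 2.54 ± 0.41 with DEN and 2.73 ± 0.41 with CCl4 at day 84 (limma adjusted p = 0.00022 and 6.42e-05). Adipor2, an adiponectin receptor, fell by 1.22 ± 0.12 with CCl4 at day 28 and, at day 84, by 1.32 ± 0.12 with DEN and 1.72 ± 0.12 with CCl4 (adjusted p between 9.72e-08 and 2.01e-06, limma). Of 8 tested members of that family, 1, 5, 4 and 6 changed with DEN and CCl4 at day 28 and with DEN and CCl4 at day 84. Among partners of Tenm2, Adgrl1, a latrophilin, fell by 0.92 ± 0.10 with CCl4 at day 84 (4.86e-06, limma), and Tenm3 did not pass in any of the 4 comparisons. Flrt2, a membrane protein that binds latrophilins, was at least 4.86-fold higher with CCl4 at day 84 (5.03e-05, limma). Its smallest log2 difference over the alternatives was 0.71, again less than the bound. Of the 5 tested genes of this list, 0, 4, 3 and 4 changed in the same order of comparisons. Among relatives of Slc25a30, Slc25a27 rose by 2.04 ± 0.18 with CCl4 at day 28 and by 1.31 ± 0.18 with DEN and 1.63 ± 0.18 with CCl4 at day 84 (limma adjusted p between 9.96e-07 and 6.18e-05). Ucp2, the uncoupling protein, rose by 1.27 ± 0.19 with CCl4 at day 84 (4.72e-05, limma). Of its 8 tested genes 1, 4, 5 and 7 changed. Of the corepressor list of Zfp354a, 3 genes were tested, and Cbx5, a heterochromatin protein, rose by 0.74 ± 0.11 with CCl4 at day 28 (4.91e-05, limma), with 1 of 3 changed in each of the 4 comparisons.

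Genes whose course over the 18 arrays was most like that of a member, by the root mean square of the log2 differences after each gene was centred on its control mean, were named by rule. For Stac3 they were Mup4 (a major urinary protein, 0.983) and Inmt (indolethylamine N-methyltransferase, 1.80). For Aox3 they were Cyp2c11, the main male-specific P450 of rat liver (1.54), and Mup4 (1.86). Ltc4s was nearest to Car3 (carbonic anhydrase 3, 1.09) and Sez6 (1.22), Nox4 to Sez6 (0.586) and Patel14l2 (0.774), and Zfp354a to Ppp1r3c (a glycogen-targeting phosphatase subunit, 0.660) and Mfsd2a (a lysolipid transporter, 0.736). Lrtm2 was nearest to Jkampl (0.596) and Extl1 (0.821), Mmd2 to Plppr1 (1.29) and Or9s13 (1.38), Tenm2 to Oat (ornithine aminotransferase of pericentral hepatocytes, 0.807) and Ptk6 (0.887), and Slc25a30 to Rad54l2 (0.616) and Arhgap29 (0.676). The mean course of the 9 was nearest to Sez6 (0.523), Patel14l2 (0.561), Gimd1 (0.678), Or4f7c (0.683) and Kcnip1 (0.723). Mup4, as an example, differed from controls by -2.42 (DEN) and -8.06 (CCl4) at day 28, and by -3.99 (DEN) and -12.03 (CCl4) at day 84. These genes were found by likeness to the members, so their values are a description.

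The tissue was liver on every array by its markers: 10 of 10 hepatocyte markers were well above background on all 18. The summed hepatocyte signal, in multiples of the 75th percentile of the array, was 5454 to 5562 in DEN livers, 3152 to 3996 in CCl4 livers and 6573 to 6811 in controls at day 28. It was 3331 to 3877 in DEN livers, 3414 to 4580 in CCl4 livers and 5519 to 5746 in controls at day 84. At day 28, 3 of the 10 fell in DEN livers and all 10 in CCl4 livers, and at day 84, 9 fell with each compound, by at most 1.84 log2 units (limma). These falls depended on the scaling: with spike-in scaling, added for the marker lists after the data were seen, 0 and 3 fell with DEN and CCl4 at day 28 and 0 and 2 at day 84, and 1 rose in each. In the main fit Stac3, Aox3, Ltc4s, Nox4, Tenm2 and Zfp354a were lower by more than 1.84 with CCl4 at both days. At day 28 Lrtm2 (-1.81) and Slc25a30 (1.50) were not, and Mmd2 gave no size. With normexp background correction Nox4 was -1.70 and Tenm2 -1.21 with CCl4 at day 28, and Tenm2 was -1.33 with CCl4 at day 84. The 9 genes were picked for large falls in these comparisons, so nothing is read from their being larger than those of the markers. The sum of 9 stellate cell and myofibroblast markers was 99.7 to 183 in CCl4 livers and 29.4 to 53.4 in controls at day 28, where 6 of the 9 rose and 1 fell. That of 9 cholangiocyte markers was 10.6 to 14.1 in CCl4 livers and 2.37 to 2.80 in controls at day 84, where 7 of 8 tested rose and 1 fell. Other sums moved the same way as the 9 genes, though not all of their markers did. That of 10 pericentral hepatocyte markers was 179 to 343 in DEN livers, 331 to 354 in CCl4 livers and 479 to 530.5 in controls at day 84. Of 9 tested, 6 fell and 1 rose with DEN, and 2 fell and 2 rose with CCl4. With spike-in scaling 1 fell and 2 rose with DEN, and 1 fell and 4 rose with CCl4. That of 6 sinusoidal endothelial markers was 47.3 to 52.7 in DEN livers, 31.7 to 34.7 in CCl4 livers and 59.3 to 74.3 in controls at day 84. Of these 6, 3 fell and 1 rose with DEN, and 4 fell and 0 rose with CCl4. With spike-in scaling 0 fell and 4 rose with DEN, and 1 fell and 1 rose with CCl4. That of 10 kidney tubule markers was 4.02 to 4.85 in DEN livers, 3.79 to 4.43 in CCl4 livers and 6.71 to 7.73 in controls at day 84. Of 5 tested, 3 fell and 0 rose with each compound. With spike-in scaling 2 fell and 2 rose with DEN, and 1 fell and 1 rose with CCl4. That of 9 macrophage markers was 91.8 to 120 in DEN livers, 77.3 to 113 in CCl4 livers and 126 to 148 in controls at day 84. Of these 9, 2 rose and 0 fell with DEN, and 3 rose and 4 fell with CCl4. With spike-in scaling 6 rose and 0 fell with DEN, and 5 rose and 3 fell with CCl4. That of 9 mast cell and eosinophil markers was 0.848 to 1.53 in DEN livers and 1.99 to 2.31 in controls at day 84, while CCl4 livers overlapped controls. The part of these shifts in the differences of the 9 genes was not tested.

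Background correction sets the size of the low values. With normexp correction and an offset of 50 in place of the processed signal, Nox4 at day 84 was -1.67 with DEN and -1.96 with CCl4, Aox3 was -3.56 and -4.60, Mmd2 -1.81 and -1.84, and Tenm2 -1.37 and -1.33, all still below controls. The number of genes at least 2-fold lower with DEN at day 28 was then 4 of 9, and 3 of 9 with spike-in scaling.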

How the data were processed

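Liver RNA was labelled with Cy3 and hybridised to 18 one-colour Agilent arrays, 1 rat each, per the labels. Per the submitters' processing notes, the authors used Agilent Feature Extraction 10.7.1.1 to read the arrays and deposited spot files of intensity per probe, per the file headers. Their deposited value table holds a linear ratio, which was found to be the processed signal over 1 constant per array (100% of probes within 0.01 log2, column medians 0.0852 to 0.0978), so its scale and direction are known and it was not centred by gene.

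Of 62976 spots on an array, 1439 were controls. None was saturated (0), and 18 spots called outliers on any array were dropped from all. RefSeq accessions named 28206 probes of 15645 genes. Signals were taken as log2 of the processed signal minus the 75th percentile of the array. A probe had to be well above background in every array of at least 1 group (33790 probes, a count that includes probes matched to no gene). Genes were then taken from the kept probes that were matched to one. Of several probes for a gene, that with the highest mean was used, which gave 10914 genes. limma 3.58.1 (lmFit, eBayes) in R 4.3.3 fitted 1 mean per group, with 12 residual degrees of freedom, and Benjamini-Hochberg adjustment ran over all genes tested, with a threshold of 0.05. The fit was tested on simulated data. Groups came from the sample titles. P-values measure the spread between these rats, and the labels do not say whether rats shared cages or dosing rounds.

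The 9 genes, the partner lists and the marker lists were chosen with earlier results of these data known. The text names all 9 genes and, from the partner lists, among the first 3 tested of each list and the up to 3 called genes of smallest adjusted p per comparison. For likeness it names the 2 genes nearest to each member and the 5 nearest to their mean. Of 16 probes for the 9 genes, Stac3 and Nox4 have 1 each, and second probes of the others had the same sign in each treated comparison. Alternatives were another background correction, quantile, median and spike-in scaling, filters, the mean over probes, slide and replicate number as blocks, smaller fits, the authors' value table, and leaving out each array. Same-numbered arrays correlated in their deviations from the group means at -0.13 to 0.13. With 3 arrays a group this cannot exclude a pairing by number, and the main fit used none. Promoters came from the RefSeq table of build GRCr8, with figures drawn in Python with matplotlib.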

Additional observations from a re-analysis of the deposited data

Results flagged for a closer look

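For 17 comparisons over the partner genes named by rule, the effect of a compound at day 84 differed from its effect at day 28 by a limma interaction test. Their log2 differences and adjusted p-values follow. Only these named genes were screened, and part of them were named for small adjusted p-values in the treated comparisons of the same arrays. The share of all genes tested that passed the interaction test was not worked out, so nothing is read from the count. Slc25a30 is listed last because it was chosen on these values.

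With DEN, the later effect was higher for Mmd by 5.07 (adjusted p = 0.000132), Ggt1 by 5.71 (0.000787), Abcc1 by 1.47 (0.00588), Aox1 by 1.04 (0.00586) and Sod2 by 0.64 (0.00952), by limma. It was lower for Cacna1s (-2.25, adjusted p = 0.00183) and Paqr9 (-2.53, 0.0122), also by limma. These 7 calls held under the alternatives run. The DEN effect was also lower at day 84 for Adipor2 (-0.80, adjusted p = 0.00723), Adgrl2 (-0.44, 0.0159), Aox2 (-1.13, 0.0252) and Adgrl1 (-0.52, 0.0267), and higher for Cyp4f5 (1.23, 0.0264), by limma. Of these, the first 4 lost the call with spike-in scaling. Without the second DEN array of day 84 the adjusted p was 0.0706 for Aox2, 0.0755 for Adgrl1 and 0.0777 for Cyp4f5, and other single arrays also ended these 3 calls.

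With CCl4, the later effect was higher for Alox5ap by 1.67 (adjusted p = 0.0186), Dpep1 by 1.92 (0.0166), Duox1 by 0.80 (0.0205) and Sod2 by 0.52 (0.0434) and lower for Cbx5 (-0.61, 0.032), by limma. All 5 lost the call with spike-in scaling and with slide as a block. Without the second day 84 control the adjusted p was 0.0509 for Alox5ap, 0.058 for Duox1 and 0.0762 for Cbx5, and without the first it was 0.107 for Sod2. Other single arrays also ended the calls for Duox1, Cbx5 and Sod2.

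Slc25a30 had every CCl4 array above the control mean at day 28 and every one below it at day 84. The effect was 1.50 at day 28 and -1.85 at day 84, a difference of -3.34 ± 0.76, which was not tested because the gene was picked on such values.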

How the results depend on the processing

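The count of the 9 genes at least 2-fold lower with DEN at day 28, 7 in the report, was 4 with normexp background correction, 3 with spike-in scaling, and 6 to 8 when arrays were left out. The counts in the other treated comparisons (8, 8 and 9) stayed within 1.5 times. Single values of the 9 genes moved by more than the spread between rats mostly with normexp and spike-in scaling (19 of 36 each) and none of the called ones reversed. The median CCl4 minus DEN difference of the 9 genes was -3.03 at day 28 and -1.78 at day 84, but -0.90 and -0.29 with normexp, whose offset compresses low signals. That of the CCl4 effect at day 84 minus day 28, -1.36, was -0.37 with normexp and -1.97 to -0.59 when arrays were left out, -0.59 without the third CCl4 array of day 28. Leaving out arrays gave -3.55 to -2.57, -2.09 to -1.23 and -2.51 to -1.71 for CCl4 minus DEN at days 28 and 84 and for the DEN effect. Among controls, 1 of the 9 genes passed the limma threshold between days, but 2 of the 9 genes did with normexp and 2 with spike-in scaling, 0 with slide as a block or with only the control groups fitted, and 0 to 2 when arrays were left out.

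Partner genes changed with DEN at day 28 numbered 12, but 24 with spike-in scaling and 5 to 14 when arrays were left out (5 without the first DEN array, 7 without any of 4 others). The count over all genes there was 1639, but 3631 with spike-in scaling and 700 to 1319 when arrays were left out. For partner genes, 24 of 3102 values reversed. With normexp, Flrt3 was -0.20, Flrt2 -0.058, Mmd -0.054 and Casq1 -0.15 with CCl4 at day 28, Casq1 -0.11 with DEN at day 84 and Alox5 -0.033 with CCl4 at day 84. With spike-in scaling, Xdh was 0.037 and Setdb1 0.12 with DEN at day 28. Aox1 was 0.14, Duox1 0.45, Sod2 0.50, Sod1 0.058, Adgrl1 0.081 and Adgrl2 0.49 with CCl4 at day 28. Xdh was 0.28, Mgst3 0.20, Mgst1 0.20, Cat 0.030, Sod1 0.16, Setdb1 0.46 and Adgrl2 0.048 with DEN at day 84, and Trim28 0.11 with CCl4 at day 84. With the mean of all probes, Flrt3 was -0.090 with DEN and Slc25a14 -0.026 with CCl4 at day 84. The causes were not tested, other than that spike-in scaling adds one amount to every gene.

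With the replicate block, the 9 genes gave 7, 8, 8 and 9 at least 2-fold lower and the partner genes 9, 44, 37 and 48 changed, in the order DEN and CCl4 at day 28 and DEN and CCl4 at day 84. A filter on all 18 arrays kept 3 of the 9 genes and gave no such count. Signals near background limit Aox3, Nox4, Mmd2 and Tenm2 in treated livers to bounds in some comparisons, and 2 of 3 CCl4 arrays of Ltc4s and 1 of 3 of Stac3 at day 28 were dim.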
